A study of Mus musculus with 16 samples.

Results

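Malat1 and Neat1 are neighbouring long non-coding RNAs (lncRNAs) of mouse chromosome 19, and every RNA–DNA pair whose RNA tag was named for either gene was taken from the RADIP data of mouse embryonic stem cells (mESCs). These 2 RNAs, of 12080 named in the tables, supplied 2119 of 1305107 pairs in Input and 3521 of 1415135 pairs in H3K27me3-RADIP. RADIP joins an RNA to nearby chromatin DNA through a bridge adaptor inside nuclei fixed with 1% formaldehyde, and an antibody, in this case one that recognises the histone mark H3K27me3, then pulls down the joined molecules. Input molecules came from the same preparation and went into libraries with no antibody step. All libraries were from PGK12.1 mESCs grown with serum and Leukemia Inhibitory Factor, and RNA was treated with RNase H during preparation in both conditions. The labels list 8 libraries per condition, which the authors merged into 1 table each. Libraries were prepared from 4 biological replicates per condition, and the labels do not say which libraries share one. A value therefore has no replicate error, and intervals (95%) cover counting error between 2 merged tables only. Intervals on pairs treat pairs as independent, though several pairs are listed together per bin, so they are too narrow. Each line of a table is 1 pair, made of an RNA tag joined to a DNA tag. Pairs were listed only where the combination of an RNA and a 25-kb DNA bin passed the authors' q-value limit of 0.1.

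Malat1 is a highly abundant nuclear lncRNA that gathers in nuclear speckles, bodies rich in splicing factors, and is known to bind chromatin at transcribed genes. Its end is formed by a cleavage that releases a small tRNA-like RNA. Neat1 is the scaffold of paraspeckles, bodies that hold RNA-binding proteins such as NONO and SFPQ. It is made as a short and a long isoform from the same promoter, and the long isoform is the one that builds the body. H3K27me3 is laid down by Polycomb repressive complex 2 and marks silent developmental genes.

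The Malat1 gene (ENSMUSG00000092341.3) is found at chr19:5795690-5802672 of mm10 on the minus strand, and Neat1 (ENSMUSG00000092274.3) on the same strand at chr19:5824708-5845478. Both are annotated as lincRNA, and all of their tags were exonic. Malat1 had 1494 pairs in Input (0.114% of the table, interval 0.109 to 0.120) and 2653 in H3K27me3-RADIP (0.187%, 0.180 to 0.195). It ranked 4 among lncRNAs by pairs in Input and 3 in H3K27me3-RADIP. Neat1 had 625 pairs in Input (0.0479%, 0.0443 to 0.0518) and 868 in H3K27me3-RADIP (0.0613%, 0.0574 to 0.0656), at ranks 8 and 7. Per kb of gene, Malat1 had 214 and 380 pairs and Neat1 30.1 and 41.8, and Malat1 ranked 1 and Neat1 4 on this scale among lncRNAs with at least 50 pairs in either table. Within a table, an RNA may have more pairs than another through more RNA per cell or through more cells with it. These cannot be told apart in merged tables.

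The most used RNA tags of both genes are shown because they mark where the RNA was joined to the adaptor. Sequences are those of the sense strand in the GRCm38 reference (the genome behind mm10), written with T. Capitals mark the 23 bases that a pair of overlapping Malat1 tags share.
Malat1 tag at chr19:5800752-5800775: GAATGGTAGATGGCAAGTTGTCTt
Malat1 tag at chr19:5800753-5800776: aGAATGGTAGATGGCAAGTTGTCT
Malat1 tag at chr19:5800218-5800241: tactgctatgctgttggcacgaca
Malat1 tag at chr19:5800659-5800682: aacagatgacctaccacaagcctc
Neat1 tag at chr19:5843780-5843803: tggttgtaaaatgggtagggtttg
Neat1 tag at chr19:5845195-5845218: acgtccaggagggcacaagtttca
The first Malat1 tag was in 30 pairs of Input and 49 of H3K27me3-RADIP, and its neighbour shifted by 1 base was in 14 and 37. The second pair of Malat1 tags had 25 and 37 pairs, and 27 and 35 pairs. Each of these positions was joined to many DNA positions, 28 in Input and 40 in H3K27me3-RADIP for the first tag, so the same piece of RNA was listed at many sites. The Neat1 tags had 8 and 20 pairs, and 12 and 11 pairs. Each of the 6 sequences occurred once in the genome. Exact matches to more than 1 place were found for 0 of the 1494 Malat1 tags of Input, 2 of the 2653 of H3K27me3-RADIP, and 3 of 625 and 2 of 868 Neat1 tags. The authors kept only pairs whose RNA and DNA tags mapped uniquely, so low counts were set by that filter.

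Malat1 tags covered nearly the whole RNA in both tables, most densely between about 1.4 and 2.8 kb from the 5′ end. The 10 equal windows along the gene each held between 3.82% and 17.7% of the tags in Input and between 3.88% and 14.8% in H3K27me3-RADIP. Past the midpoint of the gene lay 38.0% of the Input tags (35.6 to 40.5) and 38.7% in H3K27me3-RADIP (36.9 to 40.6), a difference of 0.730 percentage points (-2.36 to 3.79). Tags in trans, with the DNA tag on another chromosome, and tags in cis, on the same chromosome, also came from similar positions. In Input, 37.7% of the trans tags and 39.3% of the cis tags lay past the midpoint (difference -1.62 points, -7.91 to 4.45). In H3K27me3-RADIP these were 39.3% and 36.5% (difference 2.78 points, -1.91 to 7.30). The counts per 100 nt of both tables followed each other across 70 windows (Pearson's r = 0.93), which is a description across windows of 1 RNA. The last 383 nt held 3 tags in Input and 4 in H3K27me3-RADIP, against a mean of 21.3 and 37.9 tags per 100 nt over the gene.

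**Figure D1:**
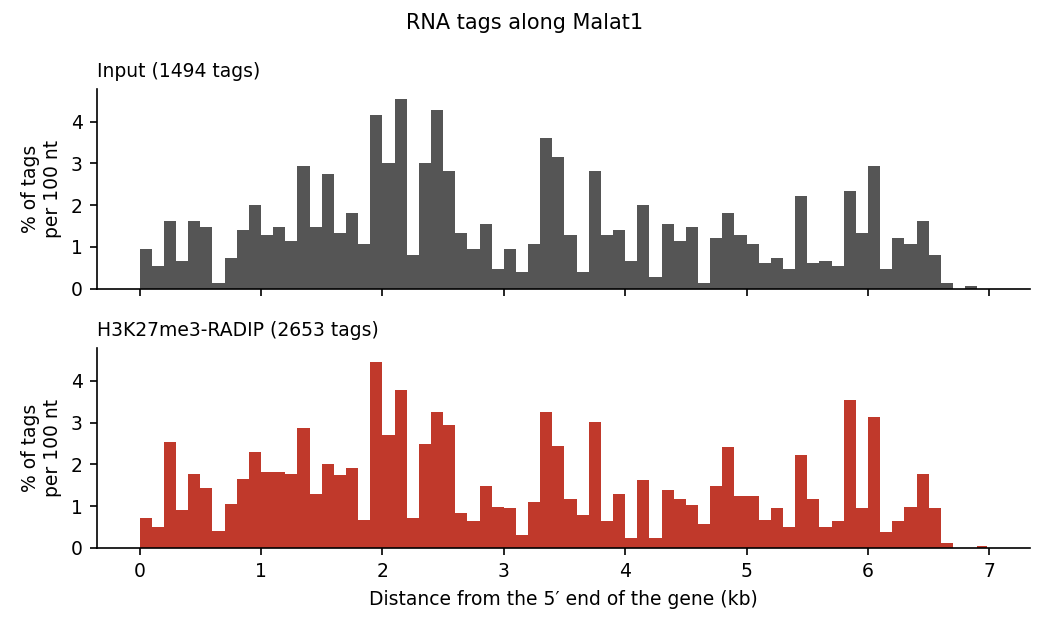
RNA tags along Malat1 in windows of 100 nt, as percent of all Malat1 tags in Input (upper panel, 1494 tags) and H3K27me3-RADIP (lower panel, 2653 tags), against the distance from the 5′ end in kb. Most peaks stand at the same windows in both panels, and the last 383 nt are nearly empty.

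Malat1 took a larger share of the pairs in H3K27me3-RADIP than in Input, with a log2 ratio of 0.71 (0.62 to 0.80), or 1.64-fold. Malat1 was thus past the limit of 0.5 on the log2 scale, as were 28.9% of the 166 lncRNAs and 14.8% of the 5540 RNAs of all classes that had at least 50 pairs over both tables. A log2 ratio at least as high as that of Malat1 was found for 21.7% of these lncRNAs and 8.74% of all these RNAs. Cis pairs (295 and 523, log2 ratio 0.71, 0.50 to 0.92) and trans pairs (1199 and 2130, 0.71, 0.61 to 0.82) had nearly the same ratio. For Neat1 the log2 ratio was 0.36 (0.21 to 0.51), which 33.7% of the lncRNAs and 21.5% of all RNAs reached. The median log2 ratio was 0.12 over the lncRNAs and -0.07 over all RNAs. Among combinations of RNA and bin that both tables list, the ratio was 0.01 (-0.21 to 0.24) for Malat1 and 0.16 (-0.00 to 0.32) for Neat1. As a share of lncRNA pairs only, it was 0.44 (0.35 to 0.54) for Malat1, which is under the limit of 0.5, and 0.09 (-0.06 to 0.24) for Neat1.

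Malat1 was mostly a trans RNA and Neat1 was a cis RNA in both tables. Trans pairs made up 80.3% of the Malat1 pairs in Input (78.2 to 82.2) and 80.3% in H3K27me3-RADIP (78.7 to 81.8), a difference of 0.0321 points (-2.46 to 2.59). With a q-value limit of 0.01 the difference was 10.2 points (5.21 to 15.2). None of the 625 and 868 Neat1 pairs was in trans. A combination appeared only from 8 pairs up for Neat1 and 9 for Malat1, so sparser trans contacts of Neat1 cannot be seen in these tables. Of the 80 lncRNAs with at least 50 pairs in Input and the 94 in H3K27me3-RADIP, Malat1 was the only one with any trans pair. Below that number, the lincRNA Gm47283 had all of its pairs in trans, 18 in Input and 11 in H3K27me3-RADIP. Malat1 supplied 26.6% of all trans pairs of Input and 40.1% of those of H3K27me3-RADIP, where over all RNAs 0.345% and 0.375% of the pairs were in trans.

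The other RNAs with at least 50 trans pairs were all small structured RNAs. The small nuclear RNA gene Gm22973 had 2940 trans pairs over 285 Input bins and 1765 over 176 H3K27me3-RADIP bins, so its trans pairs were fewer in H3K27me3-RADIP where those of Malat1 were more. Snord118, the U8 small nucleolar RNA, had 169 and 569. Rmrp, the RNA of RNase MRP, had 108 and 293, and in H3K27me3-RADIP Snord13 had 68 and Rnu3a, a U3 small nucleolar RNA, had 55. Per bin, Malat1 had 10.3 trans pairs in H3K27me3-RADIP, close to the 10.03 of Gm22973, while Snord118 had 21.9 and Rmrp 16.3. Small nuclear and nucleolar RNAs have near-identical gene copies, so their values are uncertain.

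The trans pairs of Malat1 lay in 121 bins on 17 chromosomes in Input and 207 bins on 19 chromosomes in H3K27me3-RADIP. Most bins were at the edge of listing. In Input 78 bins held 9 pairs, the fewest listed for Malat1, 37 held 10 to 12 and 6 held more. In H3K27me3-RADIP 105 held 9, 85 held 10 to 12 and 17 held more. Only 5 bins were in both tables, which is 4.13% of the Input bins and 2.42% of the H3K27me3-RADIP bins. For Gm22973 the tables shared 23 bins (8.07% and 13.1%), for Snord118 5 (33.3% and 19.2%) and for Rmrp 4 (44.4% and 22.2%). A bin missing from a table may still have held Malat1 pairs below the limit. Pairs that repeated both tag positions of another were 9.97% of the Malat1 pairs in Input and 16.1% in H3K27me3-RADIP. When these were counted once and 9 pairs were still asked for, 67 bins remained in Input and 83 in H3K27me3-RADIP, and whether they were amplified copies was not tested. With the larger table drawn down to the size of the smaller, H3K27me3-RADIP had 160 bins.

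The strongest trans bin in both tables was within Sfi1, a centrosomal protein gene, at chr11:3150001-3175000. It held 34 Malat1 pairs in Input and 51 in H3K27me3-RADIP, and no other bin held over 16 in Input or 19 in H3K27me3-RADIP. The bins on either side, also in Sfi1, had 14 and 14 pairs, and 0 and 19. The 3 Sfi1 bins gave 4.003% and 3.94% of the Malat1 trans pairs. These bins were not used by Malat1 alone, since they also listed most other RNAs with trans pairs, 10 of 12 with Malat1 in Input and 29 of 40 in H3K27me3-RADIP. Of the Malat1 DNA tags in these bins, 1 of 48 and 1 of 84 matched more than 1 place in the genome. The authors' filter for uniquely mapped tags sets such low counts, so they do not test how tags mapped here. The other bins in both tables were at Nfix, a transcription factor gene (13 and 12 pairs), at Eef2 and Dapk3, for a translation elongation factor and a kinase (9 and 14), and at Mast1 and Rtbdn (9 and 11).

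The remaining bins among the 10 with the most Malat1 trans pairs were each in 1 table. At Rif1, a replication timing factor gene, there were 16 pairs in Input and 0 listed in H3K27me3-RADIP. At Nxph4 and Lrp1, a neurexophilin and a lipoprotein receptor gene, there were 0 and 16. At Chmp6, an ESCRT subunit gene, there were 0 and 15, and a bin with no protein-coding or lncRNA gene at chr9:123925001-123950000 had 0 and 15. The bin of Fendrr and Foxf1, chosen for naming after the values were seen, had 0 and 14 pairs at chr8:121075001-121100000. Foxf1 is a lung and gut mesoderm regulator and was the only member of the list of 50 Polycomb target genes whose bins Malat1 reached. That is 0 of 121 Malat1 trans bins in Input and 1 of 207 in H3K27me3-RADIP (0.483%, 0.0853 to 2.69), where such genes lay in 0.133% and 0.171% of all bins with a DNA tag. Of the Gm22973 trans bins, 0 of 285 and 7 of 176 held a gene of this list. Malat1 RNA was also listed at genes from the protein lists of both nuclear bodies, Smarca4 (11 pairs) and Srsf2 (9 pairs), in Input only, and at no other gene of those lists.

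Most Malat1 trans bins held a protein-coding gene and produced RNA themselves. RNA tags of other genes came from 102 of the 121 Input bins (84.3%, 76.8 to 89.7) and 166 of the 207 H3K27me3-RADIP bins (80.2%, 74.2 to 85.1). Among all bins of the genome these shares were 34.1% and 34.9%, among bins with any listed DNA tag 72.0% and 71.3%, and among the trans bins of all other RNAs 88.4% and 77.4%. A protein-coding gene overlapped 91.7% and 87.4% of the Malat1 bins, against 94.7% and 82.2% of the trans bins of all other RNAs, 78.3% and 76.8% of the bins with any listed DNA tag and 51.5% of the genome's bins. The amount of local RNA differed more than its presence. Counted in the Input table alone, the bins listed in Input had a median of 45 pairs with RNA from the bin, and those listed in H3K27me3-RADIP had 12. Counted in the H3K27me3-RADIP table alone, the medians were 44 and 17. The bins of Gm22973 had 52 and 19.5 in the Input table, so they ranked in the same order. The median GC content was 46.5% in the Input bins of Malat1 and 49.7% in the H3K27me3-RADIP bins, against 41.1% over the genome. It was 46.7% and 49.4% in the trans bins of Gm22973, and 46.6% and 48.4% in those of all other RNAs. Bins with any listed DNA tag had 44.0% and 44.3%.

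**Figure D2:**
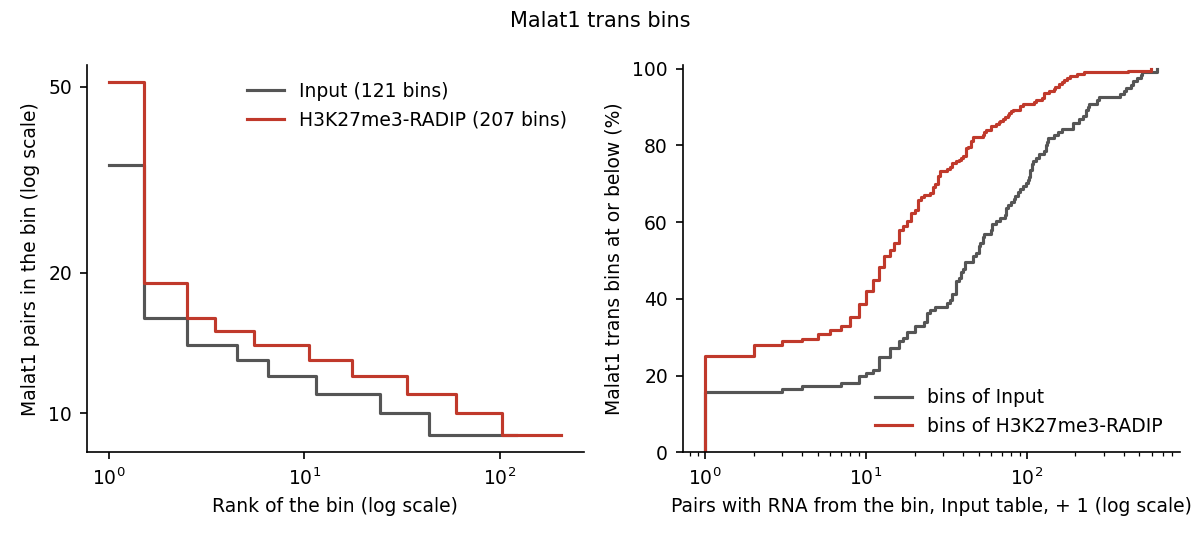
Left, Malat1 pairs in each trans bin against the rank of the bin, both on log scales, for Input (121 bins, grey) and H3K27me3-RADIP (207 bins, red), with the Sfi1 bin at 34 and 51 pairs standing above a tail that ends at 9. Right, cumulative percent of these bins against the number of Input pairs whose RNA came from the bin (plus 1, log scale), where the red line lies left of the grey line and the medians are 12 and 45 pairs.

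Within bins, Malat1 DNA tags in trans lay in protein-coding genes in 77.1% of pairs in Input (74.7 to 79.4) and 65.5% in H3K27me3-RADIP (63.4 to 67.5), a difference of -11.7 points (-14.7 to -8.49). Protein-coding genes cover 40.3% of these chromosomes. Gm22973, with its pairs on chromosome 19 left out, had 77.1% and 64.6%, a difference of -12.6 points (-15.3 to -9.82). Within 2 kb of a transcription start site lay 12.8% of the Malat1 tags in Input (11.1 to 14.9) and 15.1% in H3K27me3-RADIP (13.7 to 16.7), against 15.9% and 16.8% of the Gm22973 tags and 3.87% of the bases. The difference between the tables was 2.27 points (-0.213 to 4.65). Because a listed bin holds at least 9 pairs, pairs are not independent and these intervals are too narrow.

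Chromosome 8 received more Malat1 trans pairs than any other chromosome in both tables, with 262 of 1199 in Input (21.9%, 19.6 to 24.3) and 496 of 2130 in H3K27me3-RADIP (23.3%, 21.5 to 25.1). It makes up 5.03% of the length of the chromosomes considered and held 9.30% and 10.4% of the DNA tags of all RNAs outside chromosome 19. Of the Gm22973 trans pairs outside chromosome 19, 16.3% and 23.2% were there. Chromosome 11 was next with 11.8% and 13.99%, or 8.08% and 10.5% without the Sfi1 bins. Its place in Input rested on those bins, since without them chromosomes 6 (8.51%), X (8.43%) and 4 (8.25%) were higher. The X chromosome had a smaller share in H3K27me3-RADIP. It had 97 pairs over 10 Input bins (8.09%, 6.68 to 9.77) and 28 pairs over 3 H3K27me3-RADIP bins (1.31%, 0.911 to 1.89), a difference of -6.78 points (-8.50 to -5.25). Over the same tables, 2.56% and 1.93% of all DNA tags outside chromosome 19 were on the X chromosome, and 4.84% and 2.35% of the Gm22973 trans pairs outside chromosome 19. Input bins on the X chromosome, named after the values were seen, included a pair of adjoining bins in the ubiquitin ligase gene Huwe1 with 11 and 10 pairs. The largest gain in share was on chromosome 9, with 20 and 134 pairs (4.62 points, 3.31 to 5.88). Chromosome 10 had 47 and 130 pairs (2.18 points, 0.617 to 3.64). On chromosome 12 no Input pair and 85 H3K27me3-RADIP pairs were listed, and on chromosome 16 there were 0 and 45. Shares were smaller in H3K27me3-RADIP on chromosomes 1 (-2.82 points), 3 (-0.578), 4 (-2.62) and 5 (-1.64), each with an interval below 0.

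**Figure D3:**
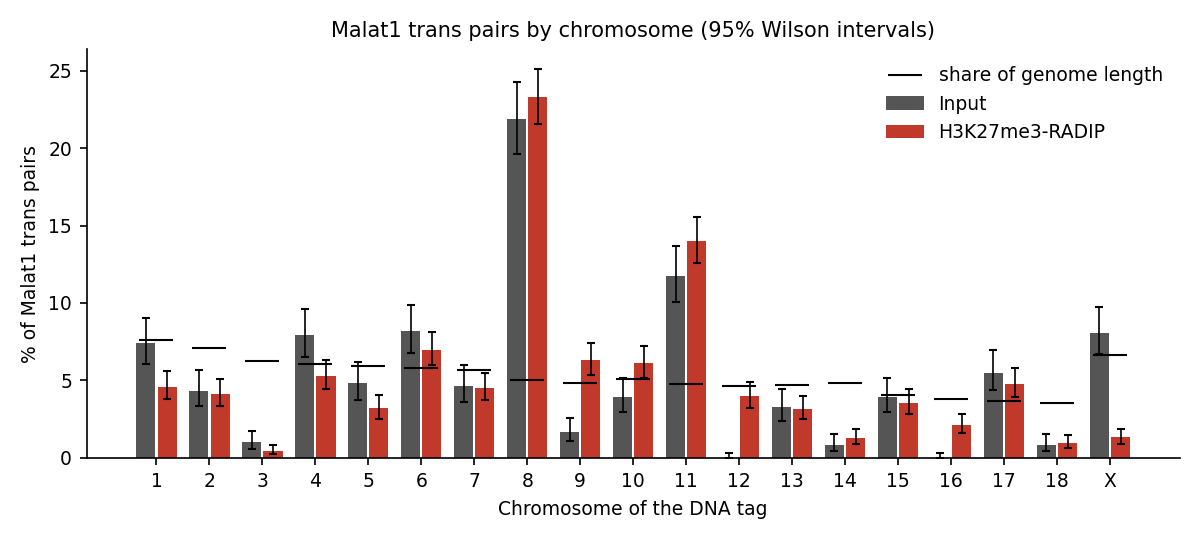
Percent of the Malat1 trans pairs whose DNA tag fell on each chromosome in Input (grey) and H3K27me3-RADIP (red), with 95% Wilson intervals as error bars and the share of genome length as a black dash. Chromosome 8 stands highest in both tables at 21.9% and 23.3%, and the X chromosome is at 8.09% in Input and 1.31% in H3K27me3-RADIP.

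The sets of trans bins of Malat1 and of other RNAs overlapped little. Among RNAs with at least 5 trans bins, the set most like that of Malat1 was the set of Gm22973, with a Jaccard index of 0.0384 in Input (15 shared bins, 12.4% of the Malat1 bins and 5.26% of the Gm22973 bins) and 0.0351 in H3K27me3-RADIP (13 shared bins, 6.28% and 7.39%). Rmrp followed with 2 shared bins in Input and 5 in H3K27me3-RADIP. The small nucleolar RNA Rnu3a shared 3 bins in H3K27me3-RADIP, and Snord13 and Snord118 shared 2 each. Of the Malat1 bins, 87.6% in Input and 92.8% in H3K27me3-RADIP had no other RNA listed in trans.

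In cis, the listed pairs of both RNAs lay further apart in H3K27me3-RADIP. Bins with fewer than 9 Malat1 or 8 Neat1 pairs were not listed, so sparse far contacts cannot be seen. Whether the higher number of pairs in H3K27me3-RADIP let more far bins be listed was not tested. Tag centres of Malat1 cis pairs had a median distance of 29.3 kb (Input) and 157 kb (H3K27me3-RADIP) from each other, and 84 of 295 pairs (28.5%, 23.6 to 33.9) against 293 of 523 (56.0%, 51.7 to 60.2) were over 100 kb apart. The difference was 27.5 points (20.7 to 34.0). For Neat1 the medians were 4.52 and 17.3 kb, and 93 of 625 pairs (14.9%, 12.3 to 17.9) against 221 of 868 (25.5%, 22.7 to 28.5) were over 100 kb apart, a difference of 10.6 points (6.48 to 14.5). Over all lncRNAs 35.5% and 43.4% of cis pairs were over 100 kb apart, and over all RNAs 36.4% and 43.7%. No Neat1 pair was over 1 Mb apart in either table, the farthest being 0.466 Mb in Input and 0.764 Mb in H3K27me3-RADIP. Malat1 had 19 pairs over 1 Mb apart in Input (6.44%) and 105 in H3K27me3-RADIP (20.1%), beside 8.74% and 14.8% of the cis pairs of all lncRNAs and 4.61% and 7.33% of those of all RNAs.

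Contacts on the gene itself took a smaller share in H3K27me3-RADIP. DNA tags inside the Malat1 gene were 95 of its 295 cis pairs in Input (32.2%, 27.1 to 37.7) and 52 of 523 in H3K27me3-RADIP (9.94%, 7.66 to 12.8), a difference of -22.3 points (-28.2 to -16.4). DNA tags inside the Neat1 gene were 388 of its 625 pairs in Input (62.1%, 58.2 to 65.8) and 367 of 868 in H3K27me3-RADIP (42.3%, 39.0 to 45.6), a difference of -19.8 points (-24.7 to -14.7). In the bins of its own gene Neat1 thus had 439 and 477 pairs, and outside them 186 and 391. Without the bins of its own gene, a choice made after the data were seen, the log2 ratio of Neat1 was 0.96 (0.70 to 1.21) in place of 0.36. That of Malat1 was 0.79 (0.70 to 0.89) in place of 0.71. Own-gene bins were not left out for other RNAs, so the shares of RNAs past the limit of 0.5 do not apply to these values.

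Malat1 cis pairs filled 14 Input bins and 34 H3K27me3-RADIP bins with 9 in both tables, and Neat1 pairs filled 17 and 26 with 13 in both. Outside its own gene, Malat1 was most often listed at the bin of Neat1 and Frmd8 (24 and 33 pairs), and the next bin within Frmd8 had 16 and 21. The bin of Sf1, Pygm and Rasgrp2, which holds the splicing factor 1 gene, had 9 and 18, and the bin of Dpf2, a chromatin remodeller subunit, had 12 in each. Neat1 was most often listed at Frmd8 (35 and 46), Malat1 (19 and 36), Ehbp1l1 and Ltbp3 (11 and 31), and Dpf2 and Cdc42ep2 (9 and 26). All 8 of these raw counts were higher in H3K27me3-RADIP than in Input except that of Malat1 at Dpf2, which was the same. H3K27me3-RADIP listed more pairs in total and more of both RNAs, and the share of all cis bins that were higher was not computed. The direction is therefore not a result about these bins.

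**Figure D4:**
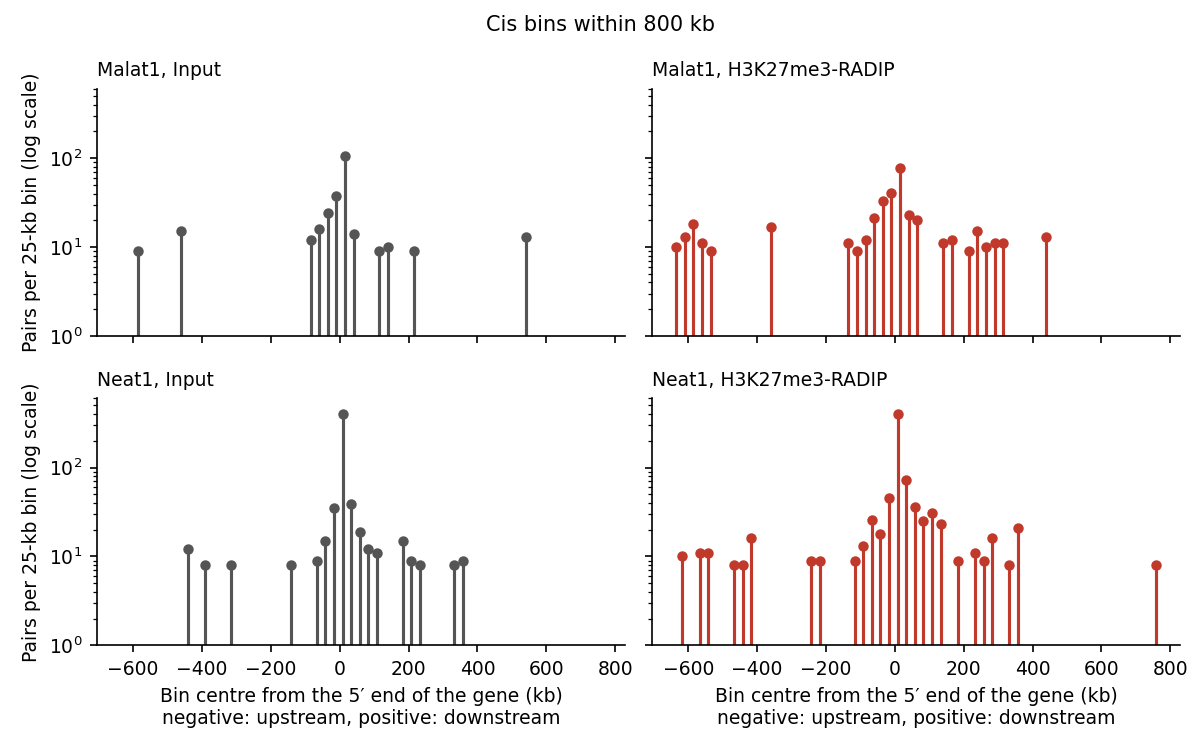
Pairs in each 25-kb bin of chromosome 19 (log scale) against the distance of the bin centre from the 5′ end of the gene in kb, for bins within 800 kb, with Malat1 above, Neat1 below, Input on the left in grey and H3K27me3-RADIP on the right in red. More bins are listed on both sides of each gene in H3K27me3-RADIP, including a group upstream of Malat1 from Cdc42bpg to Nrxn2, whose near edges lie 522 to 622 kb from the gene.

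Away from the locus, both RNAs were listed at some of the same stretches of chromosome 19 in H3K27me3-RADIP. From Cdc42bpg to Nrxn2, a kinase and a neurexin gene, Malat1 had 9 pairs in a single Input bin and 61 pairs over 5 adjoining H3K27me3-RADIP bins (chr19:6325001-6450000, 522 to 622 kb from the gene). In the slightly wider stretch chr19:6300001-6475000, 455 to 605 kb from its gene, Neat1 had none listed in Input but 40 pairs over 4 bins in H3K27me3-RADIP, and the bin just before it, chr19:6275001-6300000, had 12 Neat1 pairs in Input and 8 in H3K27me3-RADIP. At the transcription factor gene Ovol1, Malat1 had 0 and 25 pairs and Neat1 0 and 16. Other bins went the other way, and Malat1 was listed in Input alone in 5 bins, among them chr19:6250001-6275000 at Atg2a (15 pairs), chr19:5250001-5275000 at Pacs1 and Sf3b2 (13) and chr19:10625001-10650000 at Ddb1 (10). Neat1 was listed in Input alone in 4 bins with 8 or 9 pairs each. Some bins split the RNAs between the tables. At the Atg2a bin only Input listed Malat1, while only H3K27me3-RADIP listed Neat1 (16 pairs). The reverse was seen at Batf2 (chr19:6150001-6175000), with 17 Malat1 pairs from H3K27me3-RADIP alone and 8 Neat1 pairs from Input alone. Rela (chr19:5625001-5650000) was like Batf2, with 12 Malat1 and 9 Neat1 pairs. These genes and bins were chosen after the values were seen. Outside the bins of either gene, Malat1 and Neat1 shared 4 cis bins in Input (36.4% of the Malat1 bins and 28.6% of the Neat1 bins) and 13 in H3K27me3-RADIP (41.9% and 56.5%). At over 10 Mb from its gene Malat1 had no bin in Input and 8 bins with 75 pairs in H3K27me3-RADIP (14.3% of its cis pairs, 11.6 to 17.6), each with 9 to 11 pairs, at genes such as Prkg1, Rrp12 and Nt5c2. Without them, a choice made after the data were seen, the difference in the share of pairs over 100 kb apart was 20.2 points (13.1 to 26.9).

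The DNA of each gene was paired with the RNA of the other. Malat1 RNA was paired with DNA inside the Neat1 gene in 19 pairs in Input (0.915 per kb) and 23 in H3K27me3-RADIP (1.11 per kb). In the 22.0 kb between both genes it had 15 and 29 pairs (0.681 and 1.32 per kb), and in the 20 kb beyond Neat1 19 and 24 (0.95 and 1.20 per kb), so its density on Neat1 was close to that of the flanks. Neat1 RNA was paired with DNA inside the Malat1 gene in 10 and 19 pairs (1.43 and 2.72 per kb), beside 28 and 62 between the genes (1.27 and 2.81 per kb) and 17 and 25 in the 20 kb beyond Malat1 (0.850 and 1.25 per kb). Other RNAs were listed on both genes. Of 116 pairs on Malat1 DNA in Input, 95 were of Malat1 itself, 10 of Neat1, 6 of Gm21992 and 5 of Gm22973, and the 71 in H3K27me3-RADIP were of Malat1 and Neat1 alone. On Neat1 DNA there were 522 pairs of 7 RNAs in Input and 494 pairs of 8 RNAs in H3K27me3-RADIP, of which 388 and 367 were of Neat1 itself. Most of the rest were of small gene models inside Neat1, Gm28006 (49 and 32), Gm27505 (25 and 27) and Gm27533 (24 and 27).

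Neat1 tags came mostly from the 5′ end of the RNA, unlike those of Malat1. The window from the 5′ end to 2.08 kb held 369 of 625 tags in Input (59.0%) and 463 of 868 in H3K27me3-RADIP (53.3%), and the next one held 146 and 237. Past the midpoint lay 46 tags in Input (7.36%, 5.56 to 9.68) and 75 in H3K27me3-RADIP (8.64%, 6.95 to 10.7), a difference of 1.28 points (-1.59 to 4.01). The short isoform is annotated at chr19:5842307-5845476. Its span held 450 tags in Input (72.0%, 68.4 to 75.4) and 603 in H3K27me3-RADIP (69.5%, 66.3 to 72.4), a difference of -2.53 points (-7.14 to 2.17). Per kb that was 142 tags on the short span against 9.94 beyond it in Input, and 190 against 15.1 in H3K27me3-RADIP. Tags beyond the short span, 175 and 265, can come only from the long isoform as annotated. The share on the short span was 72.6% for pairs within 100 kb and 68.8% (58.8 to 77.3) for those farther apart in Input, and 67.9% and 74.2% (68.1 to 79.5) in H3K27me3-RADIP. Between the tables, these differences were -4.70 points within 100 kb (-9.88 to 0.557) and 5.39 points beyond (-5.11 to 16.7).

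**Figure D5:**
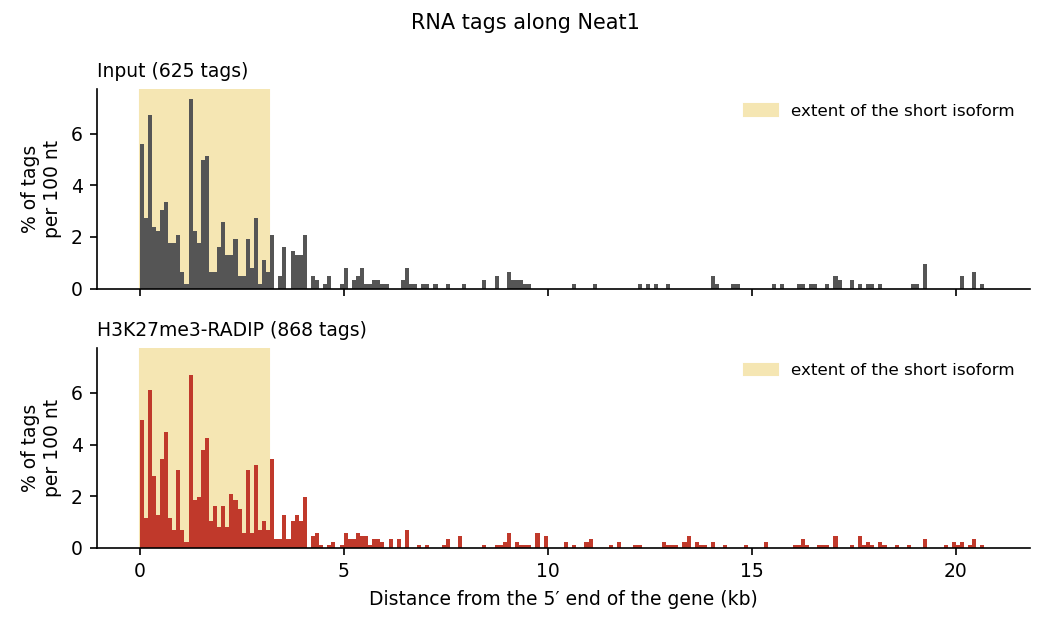
RNA tags along Neat1 in windows of 100 nt, as percent of all Neat1 tags in Input (upper panel, 625 tags) and H3K27me3-RADIP (lower panel, 868 tags), against the distance from the 5′ end in kb, with the span of the short isoform shaded. The shaded span holds 72.0% and 69.5% of the tags, and tags beyond it are sparse along the long isoform.

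Inside the short span lie 3 small same-strand gene models, Gm27533, Gm27505 and Gm28006, to which the authors' annotation gave tags under their own names. Together these models had 121 Input pairs and 105 H3K27me3-RADIP pairs, all in cis, and no tag named Neat1 lay in them, so the short span holds more tags than its count above. With them added, a choice made after the data were seen, Neat1 had 746 and 973 pairs and a log2 ratio of 0.27 (0.13 to 0.41). The small model Gm27694 inside Malat1 had no pair under its own name, and no Malat1 tag lay in it.

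RNAs for the proteins of both nuclear bodies had median log2 ratios below that of all RNAs, though most members did not pass the limit of 0.5. None of them had a trans pair, as was so for nearly all RNAs, since 8 of the 3751 RNAs with at least 50 pairs in Input and 33 of the 3758 in H3K27me3-RADIP had any. Of 25 paraspeckle protein genes, 18 had at least 50 pairs over both tables. Of these 1 was higher by at least 0.5 on the log2 scale, 8 were lower, and the median log2 ratio was -0.43, beside -0.07 over all 5540 RNAs, of which 14.8% were higher and 23.5% lower. The lowest were Rbm14 (62 and 28 pairs, log2 ratio -1.26) and Tial1 (39 and 21, -1.01), both for RNA-binding proteins, and the highest were Cpsf7, for a cleavage factor subunit (27 and 47, 0.68), and Dazap1 (60 and 64, -0.02). Of 27 nuclear speckle genes, 23 had at least 50 pairs, 0 were higher, 8 were lower and the median was -0.37, beside the same 23.5% lower over all RNAs. The splicing factor genes Sf3b1 (87 and 19 pairs, -2.31) and Srsf11 (94 and 33, -1.63) were lowest, and Clk4, for a kinase of splicing factors (27 and 40, 0.45), and Snrnp70 (224 and 287, 0.24) were highest.

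Of 26 other lncRNAs and non-coding RNAs known to act at chromatin or in the nucleus, 13 had at least 50 pairs, with 4 higher, 2 lower and a median log2 ratio of 0.19, beside 28.9% higher, 14.5% lower and a median of 0.12 over the 166 lncRNAs. The highest were Rmrp (1.32) and Airn, an imprinted silencing lncRNA (68 and 173 pairs, 1.23), and the lowest Platr4 (-1.21) and Dleu2 (-1.03). Trans pairs were listed for Rmrp and Rpph1, the RNA of RNase P, among these. Of 19 genes next to Malat1 and Neat1, 8 were listed in neither table and 2 had at least 50 pairs, Pola2 (52 and 75, log2 ratio 0.41, -0.12 to 0.95) and Frmd8 (37 and 29, -0.47, -1.22 to 0.27). Of the 50 Polycomb target genes, 4 had at least 50 pairs, of which 3 were higher, beside 14.8% of all 5540 RNAs, led by Pax7 (37 and 72, 0.84) and Pax2 (32 and 62, 0.84). The other 2, Bmp7 and Gata4, had log2 ratios of 0.80 and 0.38.

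As a check of the labelled cell type, 12 of 20 embryonic stem cell markers were listed in H3K27me3-RADIP and 11 in Input, led by Esrrb (2388 and 2500 pairs), while Pou5f1 and Nanog had no pair in either table. The highest and lowest log2 ratios among the 8 with at least 50 pairs were those of Sall4 (1.12), Klf2 (0.35), Zfp42 (-0.52) and Klf5 (-0.58). Of 12 fibroblast markers, 4 were listed in each table with 309 and 249 pairs in sum, nearly all of Fn1 (272 and 209, log2 ratio -0.50), and Dcn, Lum, Thy1 and Postn had none. The stem cell markers summed to 4640 and 4910 pairs.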

How the data were processed

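The deposited values are q-values (adjusted p-values) of RNA–DNA pairs. For each combination of an RNA and a 25-kb DNA bin, the authors took them from CHiCANE in a modified form, and pairs above 0.1 were removed. Per the labels, CASAVA 1.8.2, STAR 2.5.0a and BWA 0.7.15-r1140 and the build mm10 were used. RNA tags were named by the authors with GENCODE. Gene positions here came from GENCODE M21 on GRCm38, an earlier release on the same build. Both tables hold q-values and positions but no counts per RNA, so lines were counted (1305107 for Input and 1415135 for H3K27me3-RADIP).

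Tag starts were read as 0-based with half-open ends, 24 nt, because base composition at DNA tag ends then lined up between strands (r = 0.890 against 0.181 for a 1-based reading). Shares have 95% Wilson intervals, differences Newcombe intervals, and log2 ratios exact conditional binomial intervals. These cover counting error only and treat pairs as independent, which they are not. PCR copies cannot be recognised without molecular identifiers. No p-values were computed, since 1 merged table per condition leaves no replicates. TMM factors used trims of 30% and 5%. The ratio and interval code was tested on simulated data. Python 3.11.15, numpy 2.4.6, pandas 2.3.3, scipy 1.17.1 and matplotlib 3.10.9 were used, with the random seed 1.

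Named genes were Malat1 and Neat1, genes at the 10 trans bins and 5 cis bins with the most pairs over both tables, the 5 RNAs with the most similar trans bins, every RNA with at least 50 trans pairs, and the 2 highest and 2 lowest log2 ratios of each gene list among members with at least 50 pairs. One cis bin that this rule names is not reported here. Others are named as chosen after their values were seen. Members and lists were chosen with earlier results of these data known. Alternatives were a q-value of 0.01, repeated pairs counted once, other totals, shared combinations, larger bins, a drawn-down table, other distances and single positions or bins left out.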

Additional observations from a re-analysis of the deposited data

How the results depend on the processing

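Of 81 values under alternatives for 20 results, 63 did not change a call: a ratio or difference clear of 0 kept its direction, one whose interval included 0 still included it, and counts and shares stayed close. The uncalled Malat1 difference in tags past the midpoint (0.730 points) was -1.65 with a q-value of at most 0.01 and -2.80 for cis pairs. Limited to combinations in both tables, the log2 ratio was 0.0133 for Malat1 and 0.16 for Neat1, and as a share of lncRNA pairs 0.0885 for Neat1, all with intervals that include 0, and 0.44 for Malat1, under the limit of 0.5. Neat1 without the bins of its own gene was above that limit at 0.96, with no like background, and Malat1 was at 0.79. With a q-value of at most 0.01, the difference in the Malat1 trans share was 10.2 points, and Malat1 had 24 trans bins in Input, 59 in H3K27me3-RADIP and 3 in both. With repeated pairs counted once it had 67 and 83. With bins of 100 kb, 10 were in both tables. The share of Malat1 trans bins in H3K27me3-RADIP with local RNA was 72.9% when a cis combination of an overlapping gene was asked for. With a limit of 1 Mb, the Neat1 difference in long-range cis pairs was 0.00 points, since no pair was that far. With at least 10 pairs or no minimum, 23.1% of lncRNAs were lower, and of all RNAs 17.5% were higher and 25.5% lower. Neat1 has no trans pairs, so leaving out a trans bin or using trans tags gave no value. No paired analysis was possible because the libraries with shared replicate numbers were merged into 1 table per condition. Listing limits the trans bins, since 78 of the 121 Input bins of Malat1 and 105 of its 207 H3K27me3-RADIP bins held the fewest pairs listed.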
